A study of Arabidopsis thaliana with 12 samples.

Results

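Glucosinolates are sulfur-rich defence compounds of Arabidopsis thaliana and its relatives. They are built from amino acids such as methionine and tryptophan, stored in the cell, and broken down to toxic products by myrosinases when tissue is damaged. The account below concerns 4 genes of this pathway, the transporters GTR1 (AT3G47960) and GTR2 (AT5G62680) and the synthesis genes UGT74B1 (AT1G24100) and BCAT4 (AT3G19710), among 13356 genes that could be named on the array. Each of the 4 was read by 1 probe set that is assigned to that gene alone, so 4 probe sets of 22810 are described. They were chosen by name with earlier results of these arrays known. Their values are therefore given as a description, with no p-value, and the tests concern other genes of the pathway. The lists of those genes were also drawn up with earlier results of these arrays known, so their p-values are not independent of that choice.

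GTR1 and GTR2 are proton-coupled carriers of the plasma membrane, in the family of nitrate and peptide transporters, that load glucosinolates into the phloem and so move them between organs. GTR1 is also known to carry jasmonate and gibberellin hormones when it is expressed in frog oocytes. UGT74B1 adds glucose to the sulfur of the thiohydroximate intermediate, the step before sulfation completes the core structure. BCAT4 removes the amino group of methionine at the start of the branch that lengthens the side chain of aliphatic glucosinolates. Glucosinolate genes as a class are known to respond to jasmonate, the hormone of wounding.

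All 12 arrays came from soil-grown plants of the accession Col-0, 5 weeks old, and fall into 4 groups of 3. In the wounded group, forceps were used to wound 40% of leaf 8, at its apex, and leaf 13, itself undamaged, was taken 1 h later, and the unwounded group was leaf 13 of plants that were left intact. In the current group, leaf 8 received 40 µA for 10 s through its petiole, and its blade was taken 1 h later, and the no-current group was the blade of leaf 8 with a platinum wire in the petiole and no current. The wound comparison therefore looks at a leaf distant from the injury, and the current comparison at the treated leaf itself. The labels do not say whether the 3 arrays of a group came from separate plants or from pools, so the spread between them may be technical. A harvest time is not given for the unwounded and no-current leaves.

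Values are RMA expression values on the log2 scale, on which 1 unit is a doubling, and they ran from 1.46 to 13.3 over the arrays. Arrays of the same group correlated with r from 0.991 to 0.996 across probe sets. Differences are log2 changes with the standard error (SE) of a limma fit over all named genes, and the number of arrays limits their precision. Of the leaf photosynthesis markers RCA, LHCB4.1 and LHCB4.2, the 3 measured of 6 listed, the summed level lay between 14.36 and 14.41 in the wounded, 14.36 and 14.42 in the unwounded, 14.23 and 14.33 in the current and 14.21 and 14.24 in the no-current leaves. The vascular marker SWEET11, the 1 measured of 4, lay between 8.04 and 8.22 in the wounded and between 8.55 and 8.69 in the unwounded leaves, and between 8.91 and 9.46 in the current and between 8.97 and 9.49 in the no-current leaves. The guard cell markers FMA and AT1G22690, 2 of 4, were also summed on the linear scale, so their sum mostly follows AT1G22690. This sum lay between 8.55 and 8.73 in the wounded and between 8.82 and 9.09 in the unwounded leaves. In leaf 8 the sum lay between 6.66 and 6.78 with current and between 6.50 and 7.14 without. FMA alone overlapped, at 4.55 to 5.07 in the wounded and 4.83 to 5.34 in the unwounded leaves. The trichome marker TRY, 1 of 3, lay between 5.10 and 5.34 in the wounded and between 5.06 and 5.16 in the unwounded leaves. It lay between 5.03 and 5.94 in the current and between 4.39 and 5.24 in the no-current leaves, a log2 change of 0.68 (SE 0.21, limma adjusted p = 0.0978). No marker was called after current, and SWEET11 alone after wounding, at -0.48 (SE 0.15, limma adjusted p = 0.0477). That call lies close to the threshold of 0.05, and no marker call was run with other settings or with arrays left out. Between the no-current and unwounded leaves, limma called SWEET11 at 0.70 (adjusted p = 0.00254) and FMA at -0.99 (0.000193). It also called AT1G22690 at -2.36 (8.78e-08) and LHCB4.1 at -0.23 (0.0395), in a comparison that called 32.9% of all genes. The part of these markers in the results below was not tested. In whole leaves or leaf blades, fewer cells of a type and less RNA per cell cannot be told apart.

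The transporter GTR1 had the widest range of the 4 genes. It was measured at 9.81, 10.48 and 10.50 in the wounded leaves, against 7.41, 7.72 and 7.52 in the unwounded leaves. The mean was 10.27 ± 0.40 in the wounded and 7.55 ± 0.16 in the unwounded leaves (SD, n = 3 each), a log2 change of 2.72 (SE 0.21) or 6.58-fold. The groups lay 2.09 apart at their nearest arrays. Of the other 13355 genes, 63 had a larger positive change than GTR1 in the distal leaf.

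In leaf 8, GTR1 was measured at 9.49, 10.07 and 9.25 with current, against 7.42, 7.82 and 7.63 without. The mean was 9.60 ± 0.42 with current and 7.62 ± 0.20 without (SD, n = 3 each), a log2 change of 1.98 (SE 0.21) or 3.94-fold. Every array with current lay above every array without, by at least 1.43. A larger positive change with current was found for 27 genes, and 26 genes exceeded GTR1 in both comparisons.

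The order of the GTR1 means was wounded, current, no current and unwounded. The wounded and current arrays overlapped, since the lowest wounded array, at 9.81, lay below the highest current array, at 10.07. The unwounded and no-current arrays overlapped as well, with means of 7.62 in the no-current and 7.55 in the unwounded leaves, a difference of 0.08 (SE 0.21). The current change of GTR1 minus its wound change was -0.74 (SE 0.29).

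GTR2 was higher in the same groups, by a smaller amount. Its values were 8.13, 8.20 and 8.29 in the wounded leaves, against 6.45, 7.14 and 6.84 in the unwounded leaves. The wounded arrays lay close together and 0.99 or more above the unwounded arrays, which spread more widely. The mean was 8.21 ± 0.08 in the wounded and 6.81 ± 0.34 in the unwounded leaves (SD, n = 3 each), a log2 change of 1.39 (SE 0.14) or 2.63-fold.

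With current, GTR2 was measured at 8.09, 8.31 and 8.21, against 7.20, 7.39 and 7.13 without. These groups did not overlap either, with a gap of 0.70. The mean was 8.20 ± 0.11 with current and 7.24 ± 0.13 without (SD, n = 3 each), a log2 change of 0.96 (SE 0.14) or 1.95-fold. The means of the wounded and the current leaves were 8.21 and 8.20. The no-current leaves stood 0.43 (SE 0.14) above the unwounded leaves, with overlapping arrays, and the current change minus the wound change was -0.43 (SE 0.20). Without unwounded replicate 1 these values were 0.25 and -0.25, and without unwounded replicate 2 they were 0.59 and -0.59.

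The glucosyltransferase gene UGT74B1 had changes close to those of GTR2. Its arrays read 9.56, 9.50 and 9.40 in the wounded leaves, against 8.22, 8.41 and 7.98 in the unwounded leaves. The mean was 9.49 ± 0.08 in the wounded and 8.20 ± 0.21 in the unwounded leaves (SD, n = 3 each), a log2 change of 1.29 (SE 0.13) or 2.44-fold. The wounded arrays again lay 0.99 above the unwounded ones at the nearest.

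UGT74B1 was measured at 8.90, 9.34 and 9.22 with current, against 8.24, 8.36 and 8.19 without. All arrays with current were the higher ones, by a gap of 0.54, and replicate 1 was the lowest of them. The mean was 9.16 ± 0.23 with current and 8.26 ± 0.09 without (SD, n = 3 each), a log2 change of 0.89 (SE 0.13) or 1.86-fold. The wounded arrays of UGT74B1 all lay above its current arrays, with means 0.33 apart, while the no-current and unwounded leaves overlapped and differed by 0.06 (SE 0.13). Its current change minus its wound change was -0.39 (SE 0.18).

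BCAT4 had another pattern, in which the leaf and the experiment separated the arrays more than the treatments did. The values were 9.73, 9.40 and 9.99 in the wounded leaves, against 9.52, 10.01 and 9.35 in the unwounded leaves. These groups overlapped, and their means, 9.71 ± 0.30 in the wounded and 9.63 ± 0.34 in the unwounded leaves (SD, n = 3 each), differed by 0.08 (SE 0.17). The sign of that difference rested on single arrays, since it was -0.06 without wounded replicate 3 or without unwounded replicate 3 and 0.27 without unwounded replicate 2.

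In leaf 8, BCAT4 was measured at 11.03, 11.15 and 11.27 with current, against 10.82, 11.03 and 10.68 without. The lowest array with current and the highest without were both at 11.03 and nearly touched. The mean was 11.15 ± 0.12 with current and 10.84 ± 0.18 without (SD, n = 3 each), a log2 change of 0.31 (SE 0.17), which exceeded the wound change by 0.23 (SE 0.24). That excess was 0.07 without wounded replicate 2, 0.04 without unwounded replicate 2 and 0.15 without no-current replicate 3, and 0.37 without wounded or unwounded replicate 3. The no-current leaves stood 1.22 (SE 0.17) above the unwounded leaves, or 2.32-fold, and the gap between their nearest arrays was 0.674, in a comparison where 22.1% of all genes had no overlap and stood higher in the no-current leaves. Leaf position, the wire and the experiment differ together between those groups and cannot be told apart.

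**Figure D1:**
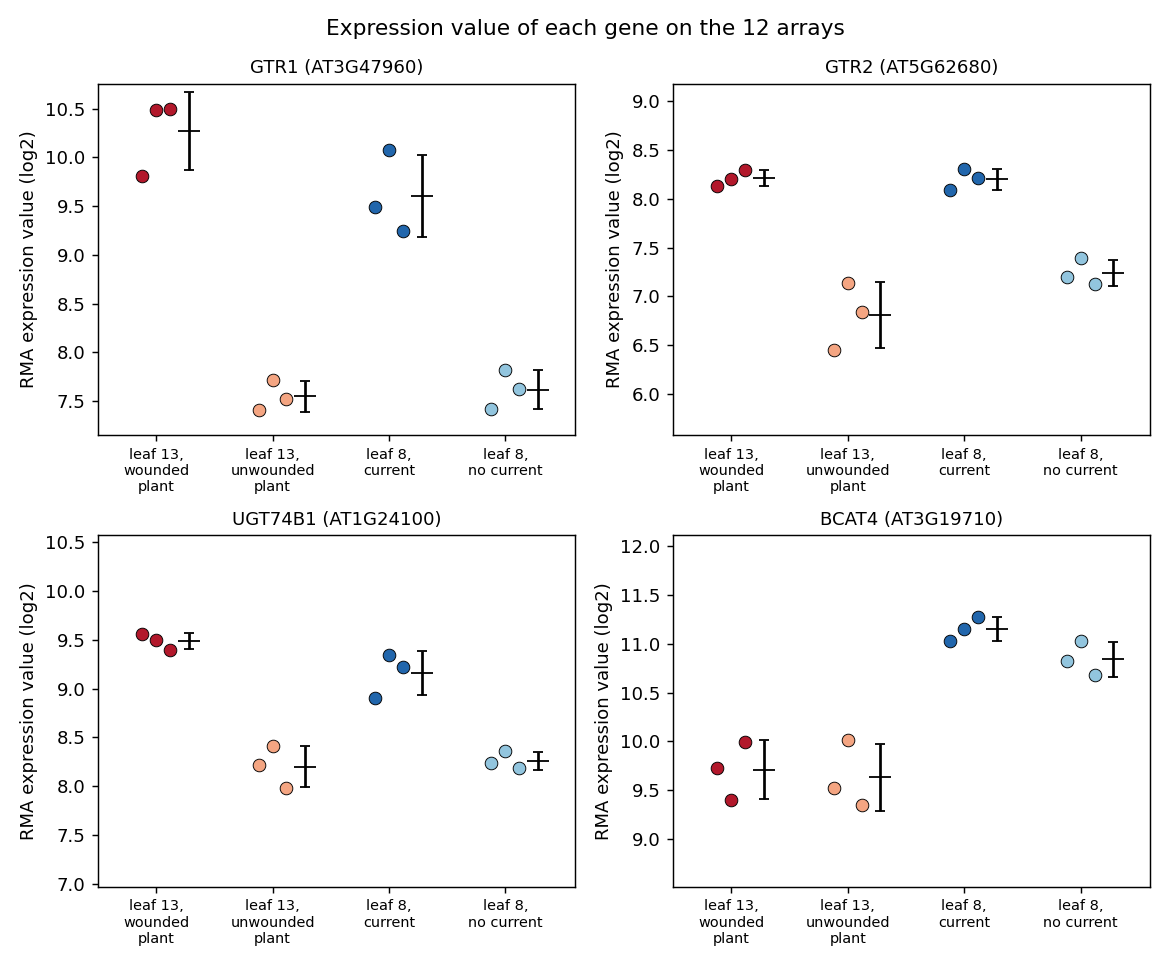
RMA expression value (log2, vertical axis, the same span in each panel) of GTR1, GTR2, UGT74B1 and BCAT4 in the wounded, unwounded, current and no-current groups, with 1 point per array and the mean ± SD (n = 3) beside the points. GTR1, GTR2 and UGT74B1 are high in the wounded and current leaves, and BCAT4 is high in both groups of leaf 8.

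Set against all genes, arrays of both groups did not overlap, with the treated ones higher, for 10.6% of 13356 genes in the wound comparison and for 7.34% in the current comparison. Of the 4 genes, 3 were in that state after wounding and 4 after current, BCAT4 by a margin under 0.01. The members had been chosen with these comparisons known, so the counts are a description. For GTR1, GTR2, UGT74B1 and BCAT4, 99.5%, 97.8%, 97.4% and 35.5% of the other genes had a smaller absolute wound change. The same shares for the current change were 99.8%, 98.8%, 98.6% and 88.9%.

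**Figure D2:**
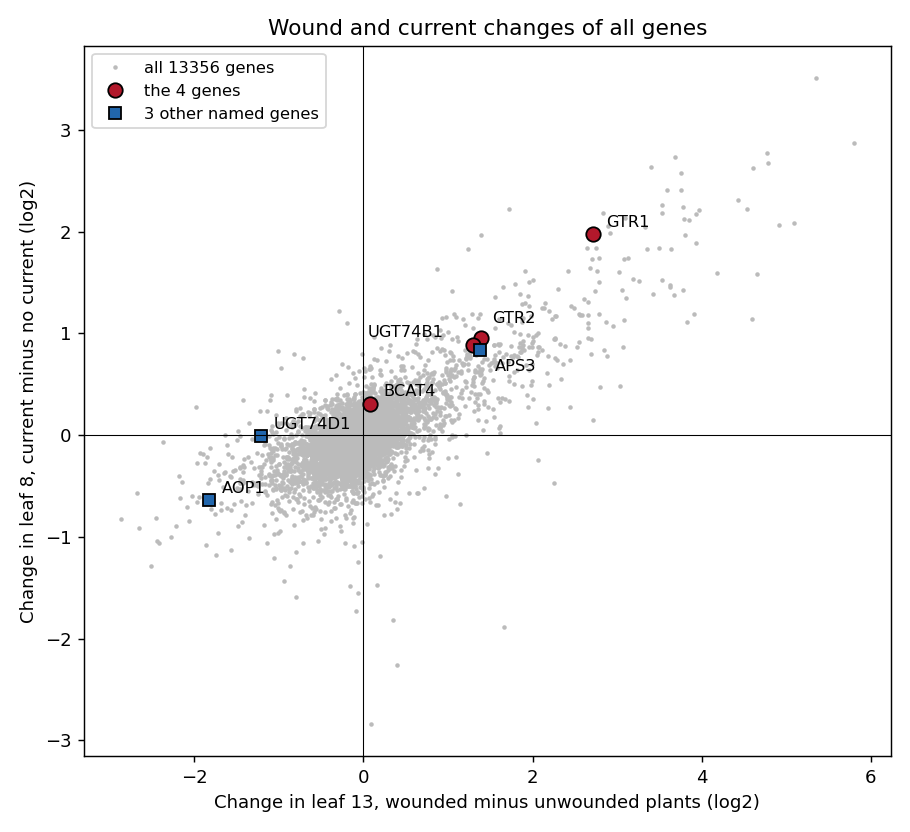
Log2 change in leaf 8 with current minus without (vertical axis) against log2 change in leaf 13 of wounded minus unwounded plants (horizontal axis), with 1 grey point for each of 13356 genes. GTR1 lies at 2.72 and 1.98 on the horizontal and vertical axes, GTR2 and UGT74B1 lie beside each other with APS3, and BCAT4 lies near the centre.

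The 4 genes were also compared with one another on the same arrays. The change of GTR1 exceeded that of GTR2 by 1.32 in the wound comparison and by 1.01 in the current comparison (SE 0.22, from the spread of the within-array difference), and that of UGT74B1 by 1.43 and 1.09 (SE 0.26). GTR2 and UGT74B1 differed in their changes by 0.11 after wounding and 0.07 after current (SE 0.16), which is less than the SE in both. The change of GTR2 exceeded that of BCAT4 by 1.31 after wounding and 0.66 after current (SE 0.17), and the change of UGT74B1 did so by 1.21 and 0.59 (SE 0.18). Within the control groups the 4 genes were high on the same arrays. Unwounded replicate 2 had the highest value of its group for 4 of 4 genes and no-current replicate 2 for 4 of 4. The median deviation of the 4 genes from their group means was 0.27 on the first and 0.17 on the second of these arrays, while over all genes it was 0.00 on both after rounding. In the treated groups, wounded replicate 3 and current replicate 2 each had the highest value of their group for 3 of 4 genes. The median deviation of the 4 genes was 0.16 and 0.15 on these arrays, against 0.00 and -0.01 over all genes. RMA holds the median over all genes near 0 on every array, and the arrays named were picked as highest for these genes. The contrast with all genes therefore cannot show whether the 4 genes deviate together more than other genes do.

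To find the genes most like each of the 4, each gene had its own mean over the 12 arrays subtracted, and the root mean square difference over the arrays was taken. For GTR1 the nearest genes were AT5G19110, at 0.188, AT5G02940, at 0.247, and AT1G31550, at 0.253, where the median over all genes was 1.25. Their wound changes lay between 2.68 and 2.75 and their current changes between 1.64 and 1.84. For GTR2 they were AT3G62010, AT5G25440 and AT5G63490, at 0.184, 0.186 and 0.196, and for UGT74B1 AT1G26730, AT5G63490 and AT5G26600, at 0.134, 0.158 and 0.161. AT5G63490 stood in both sets, with a wound change of 1.38 and a current change of 0.90. UGT74B1 itself ranked 15 of 13355 from GTR2, and GTR2 ranked 28 from UGT74B1, at a difference of 0.24. For BCAT4 the nearest genes were AT3G23870, at 0.170, the aldehyde dehydrogenase gene ALDH7B4, at 0.184, and the glutamate receptor-like gene GLR2.7, at 0.194. These 3 had wound changes of -0.10, 0.12 and 0.23 and stood 1.19, 1.34 and 1.18 higher in the no-current than in the unwounded leaves.

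The rest of the pathway was read through lists of genes for side-chain elongation, core structure, side-chain modification, regulators, breakdown, sulfate activation and transport, with the UGT74 and BCAT families. Of 88 listed genes besides the 4, 13 had a probe set with 1 gene name. None of the 9 regulators or of the 8 other elongation genes was among them, so most of the pathway was not analysed here. In the wound comparison limma called 1900 of 13356 genes at an adjusted p under 0.05, which is 14.2%, 5.81% higher and 8.42% lower. In the current comparison it called 529, which is 3.96%, 2.38% higher and 1.58% lower. Of the 13 pathway and family genes, 1 rose and 3 fell after wounding, with a median change of -0.03 where all genes had -0.03. After current, 1 rose and 1 fell, with a median of -0.01 against -0.02 for all genes.

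The gene that rose was APS3, which encodes an ATP sulfurylase, the enzyme that activates sulfate so that it can be reduced or used for sulfation. The values were 8.95, 8.79 and 8.69 in the wounded leaves, against 7.60, 7.62 and 7.07 in the unwounded leaves, and rose by 1.38 (SE 0.14, limma adjusted p = 4.84e-06). With current it was measured at 8.05, 8.24 and 8.07, against 7.30, 7.39 and 7.13 without, and rose by 0.84 (SE 0.14, limma adjusted p = 0.00247). Neither pair of groups overlapped. APS3 was 1 measured gene of 7 in sulfate activation. It ranked 10 among the genes most like UGT74B1, at a root mean square difference of 0.178, and 165 among those most like GTR2.

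AOP1 moved the other way. It encodes a 2-oxoglutarate-dependent dioxygenase related to the AOP enzymes that modify glucosinolate side chains. It was measured at 4.03, 3.97 and 3.67 in the wounded leaves, against 5.84, 5.72 and 5.60 in the unwounded leaves, and fell by 1.83 on the log2 scale (SE 0.16, limma adjusted p = 1.58e-06). With current it was measured at 5.19, 4.69 and 5.25, against 5.60, 5.47 and 5.99 without, and fell by 0.64 (SE 0.16, limma adjusted p = 0.0384). This second call ended with quantile normalization (limma adjusted p = 0.0508), when the comparison was fitted on its own groups (0.130), and when current replicate 2 (0.192), no-current replicate 1 (0.0765) or no-current replicate 3 (0.166) was left out. The current change stood 1.19 above the wound change (SE 0.23, limma adjusted p = 0.0105), in a test of the difference of responses that called 2.85% of all genes.

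UGT74D1, a relative of UGT74B1 whose enzyme glucosylates auxins, fell in the distal leaf while UGT74B1 was higher there. The arrays read 5.97, 5.54 and 5.85 in the wounded leaves, against 6.99, 6.88 and 7.13 in the unwounded leaves, a log2 change of -1.21 (SE 0.20, limma adjusted p = 0.000508). With current it was measured at 5.89, 5.75 and 6.59, against 5.77, 6.13 and 6.38 without, groups that overlapped, and the change was -0.01 (SE 0.20, limma adjusted p = 0.989). The difference of the responses was 1.20 (SE 0.28, limma adjusted p = 0.0323). That call ended without unwounded replicate 1, 2 or 3 (limma adjusted p = 0.0750, 0.0603 and 0.0899), wounded replicate 2 or 3 (0.0980 and 0.0690) or no-current replicate 1 or 2 (0.0737 and 0.0623).

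The other measured relatives of UGT74B1 had no call for wounding or current. UGT74F1, whose enzyme glucosylates salicylic acid, was at -0.07 (SE 0.12) after wounding and -0.03 (SE 0.12) after current, with values of 2.51 to 2.98 over the 12 arrays, at the low end of the scale where changes are understated. AT2G31790, listed both with that family and in the core pathway, was at 0.15 (SE 0.10) and 0.32 (SE 0.10, limma adjusted p = 0.114). GSTU20, a glutathione transferase gene listed in the core pathway, was at -0.25 (SE 0.15) and 0.08 (SE 0.15). Counting the UGT74 family without UGT74B1, 1 of 3 measured genes, of 6, fell after wounding and 0 were called after current, where 1 had an unadjusted p under 0.05 in limma.

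Of the BCAT family, ATBCAT-5, a branched-chain aminotransferase gene, fell by 0.35 after wounding (SE 0.10, limma adjusted p = 0.0331) and was at -0.16 (SE 0.10, limma adjusted p = 0.566) after current. Its wound call ended with median centring (limma adjusted p = 0.0734), when the comparison was fitted on its own groups (0.0528), and without unwounded replicate 1, 2 or 3 (0.0970, 0.0564 and 0.103) or wounded replicate 2 (0.160). AT1G50110 was at 0.13 (SE 0.12) and 0.01 (SE 0.12). Both stood lower in the no-current than in the unwounded leaves, ATBCAT-5 by a log2 change of -0.31 (SE 0.10, limma adjusted p = 0.0305) and AT1G50110 by -0.48 (SE 0.12, limma adjusted p = 0.0064), where BCAT4 stood 1.22 higher. AT1G50110 lies near the low end of the scale, at 2.94, 2.75 and 2.95 in the no-current and 3.37, 3.23 and 3.48 in the unwounded leaves. The control leaf call of ATBCAT-5 ended without unwounded replicate 1 or 3 (limma adjusted p = 0.0844 and 0.0904) or no-current replicate 1 or 3 (0.0897 and 0.0882).

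**Figure D3:**
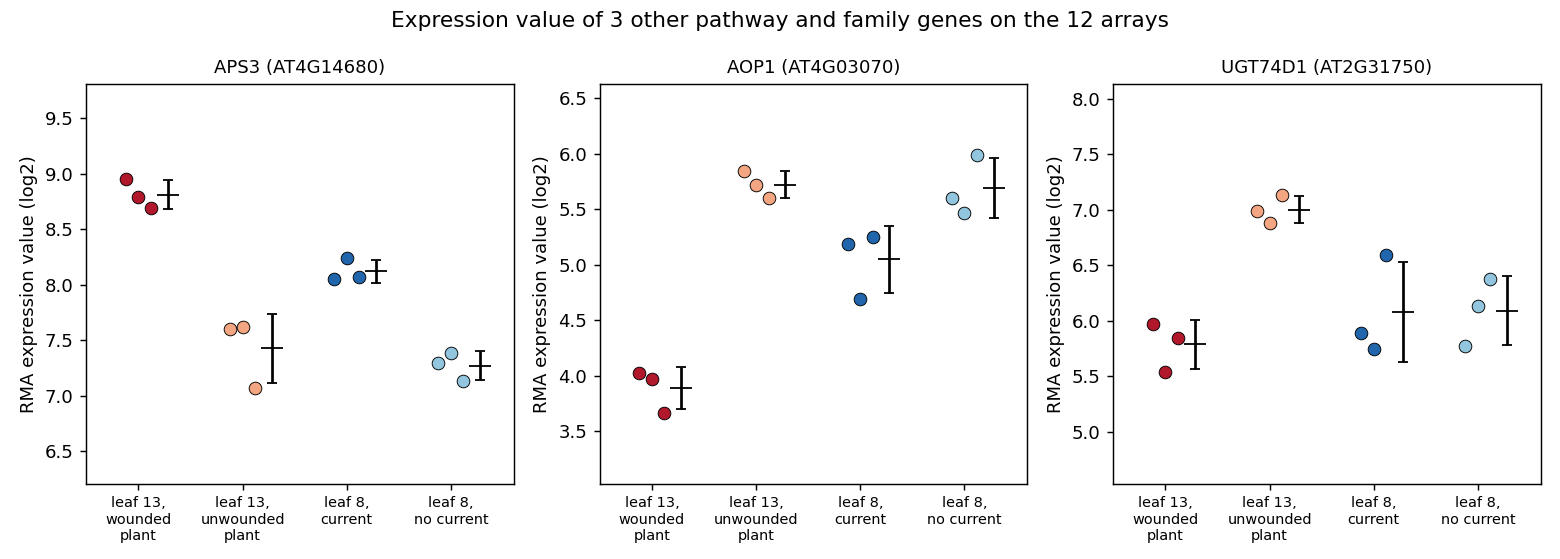
RMA expression value (log2, vertical axis, the same span in each panel) of APS3, AOP1 and UGT74D1 in the wounded, unwounded, current and no-current groups, with 1 point per array and the mean ± SD (n = 3). APS3 is higher and AOP1 lower in the wounded and current leaves than in their controls, and UGT74D1 is high in the unwounded leaves.

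The measured relatives of the transporters had no call. AT5G28470 and AT1G69860, the 2 measured of 6 in that subfamily besides GTR1 and GTR2, were at -0.01 (SE 0.08) and -0.03 (SE 0.11) after wounding and at -0.10 (SE 0.08) and 0.05 (SE 0.11) after current. Limma called 0 of them in either comparison, with 0 at an unadjusted p under 0.05. Their group means lay between 2.55 and 2.74, near the low end of the scale, where changes are understated. The same limit touches AOP3, of side-chain modification, at 3.00 to 3.43, and PYK10, a myrosinase gene of endoplasmic reticulum bodies, at 1.93 to 2.35. AOP3 was at -0.00 (SE 0.10) after wounding and -0.01 (SE 0.10) after current, and PYK10, the 1 measured breakdown gene of 16, at -0.12 (SE 0.10) and -0.03 (SE 0.10). AT2G25450, listed under side-chain modification, was at 0.14 (SE 0.12) and 0.26 (SE 0.12, limma adjusted p = 0.37).

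**Figure D4:**
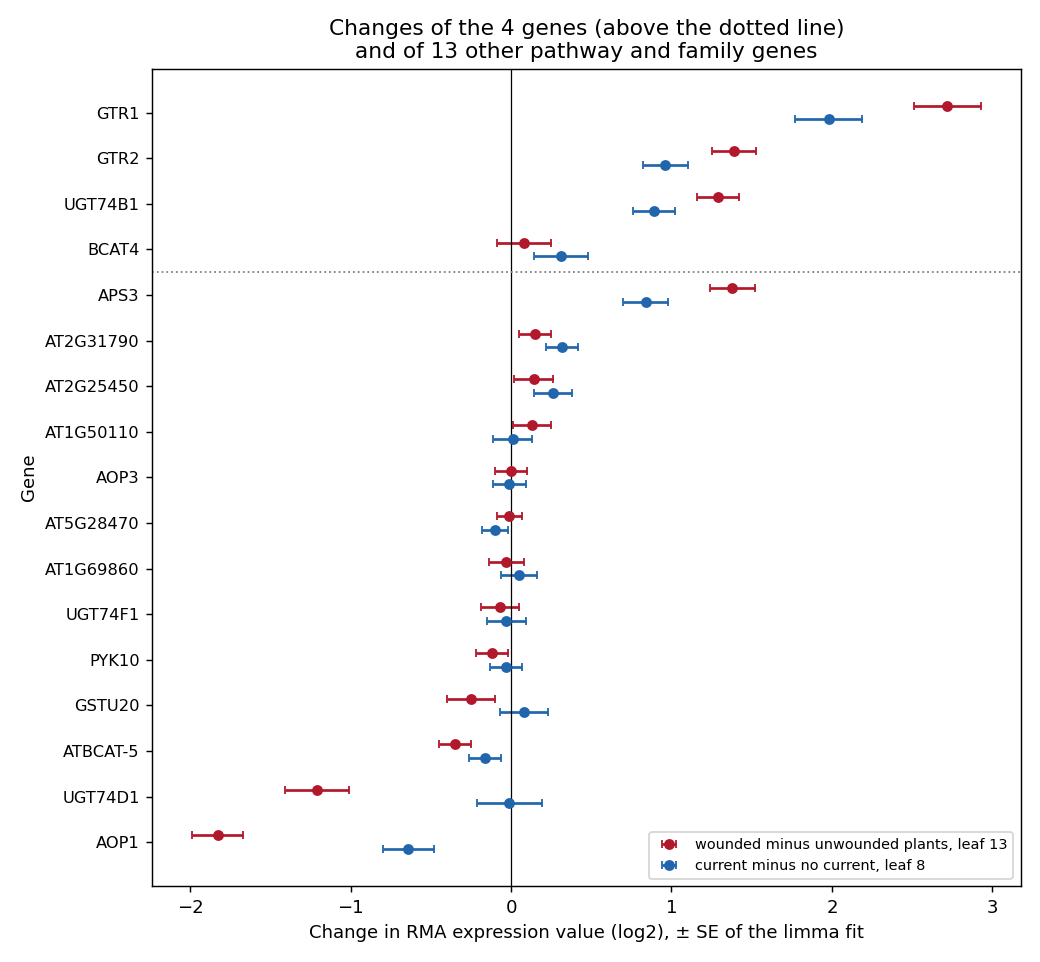
Log2 change (horizontal axis, ± SE of the limma fit) after wounding and after current for the 4 genes, above the dotted line, and for 13 other genes of the pathway and of the UGT74 and BCAT families, ordered by their wound change. APS3 lies beside GTR2 and UGT74B1, 9 of the other genes lie between -0.25 and 0.15 after wounding, and AOP1 and UGT74D1 lie lowest.

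Between the control leaves limma called 32.9% of all genes, 16.6% higher and 16.2% lower in the no-current leaves. Of the 13 pathway and family genes, 1 was higher and 3 were lower in the no-current leaves. AT2G25450, measured at 9.76, 10.10 and 9.91 in the no-current and 9.33, 9.72 and 9.33 in the unwounded leaves, stood 0.46 higher (SE 0.12, limma adjusted p = 0.00881). UGT74D1 stood at 5.77, 6.13 and 6.38 in the no-current and 6.99, 6.88 and 7.13 in the unwounded leaves, a log2 change of -0.91 (SE 0.20, limma adjusted p = 0.00245). This comparison shares its arrays with the wound and the current comparison. GSTU20 and AT2G31790 were at -0.37 (SE 0.15, limma adjusted p = 0.0655) and -0.28 (SE 0.10, limma adjusted p = 0.0503), short of the threshold. Both passed with median centring (limma adjusted p = 0.0344 and 0.0197), with a robust trend (0.0462 and 0.0404) and without no-current replicate 2 (0.00417 and 0.0197). AT2G31790 also passed with array weights (limma adjusted p = 0.0472), without the dimmest 25% of genes (0.0459) and with probe sets tested singly (0.0473). APS3, at -0.15 (SE 0.14, limma adjusted p = 0.449), passed at -0.34 without unwounded replicate 3 (limma adjusted p = 0.0460).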

How the data were processed

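The deposited table holds log2 RMA expression values of 12 Affymetrix arrays, for which the submitters' processing notes name RMA and Affymetrix Power Tools; versions are not given in the sources used here. The log base follows from RMA and the value range. RMA subtracts background, equalises intensities between arrays and summarises probes, so shared shifts are removed and low values compressed. Groups were taken from the titles and source labels. For the wounded arrays the treatment label reads none, and the group was taken from the source label.

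Of 22810 probe sets, 64 were controls, 13513 had 1 gene, 503 had several and 8730 were not named; 146 genes with several probe sets were averaged. Of 13356 genes, 13286 took current symbols from RefSeq (TAIR10.1) by identifier. No sequence was used here.

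One mean per group was fitted over 12 arrays with limma (version 3.58.1, R version 4.3.3), two-sided, with Benjamini-Hochberg adjustment over all genes and a threshold of 0.05. The fit was tested on simulated data. Members and lists were chosen with earlier results of these data known. From the lists, all genes past the threshold and up to 3 others per list were to be named, with the 3 genes nearest each member; all 13 measured are named. Alternatives were 2 further normalizations, separate fits, array weights, a robust trend, a filter on the dimmest 25% of genes, probe sets tested singly, a replicate block and leaving out each array.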

Additional observations from a re-analysis of the deposited data

How the results depend on the processing

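The changes of GTR1, GTR2, UGT74B1 and BCAT4 were recomputed in 4 contrasts (wound, current, their difference and the control leaves), 16 values. They moved by less than the spread between arrays with the 2 further normalizations and with array weights. The other alternatives that kept every array leave these differences of group means unchanged by construction, so they could not move them. Leaving out 1 array gave 2.60 to 2.95 for the wound change of GTR1, 1.21 to 1.56 for GTR2 and 1.17 to 1.39 for UGT74B1, and 1.74 to 2.15, 0.91 to 1.04 and 0.80 to 1.02 for their current changes. The sign turned for the wound change of BCAT4 (-0.06 to 0.27) and for the control leaf differences of GTR1 (-0.02 to 0.18) and UGT74B1 (-0.05 to 0.16), all near 0. Testing probe sets singly, which tests more features, called 3713 for wounding, 1185 for current, 849 for the difference of responses and 8383 for the control leaves, against 1900, 529, 381 and 4391 genes. The bases of these counts differ, probe sets against genes, so the counts do not compare as sizes of a response. Fitted on its own groups, the current comparison called 291 genes. Without 1 array the counts were 266 (without current replicate 2) to 728 (without current replicate 1) for current and 227 (without wounded replicate 3) to 469 (without wounded replicate 1) for the difference. Of the 13 pathway and family genes, the 2 called after current were 1 with quantile normalization, 1 in the separate fit and 1 to 2 without 1 array, and the 2 called for the difference were 1 to 2 without 1 array. The cause of these shifts was not tested. The calls of APS3 for wounding and current, of AOP1 and UGT74D1 for wounding and of AOP1 for the difference held in every alternative run. Over all genes, same-numbered arrays did not deviate together in the pairs of groups compared (r from -0.08 to 0.07). GTR1 lay below its group mean on replicate 1 of every group (-0.46 to -0.12) and above it on replicate 2 (0.17 to 0.47). GTR2 also lay below on replicate 1 and UGT74B1 above on replicate 2, while BCAT4 kept its sign on no replicate number. With the replicate block the SE of the wound and current changes of GTR1 was 0.15, against 0.21. What same-numbered arrays share was not tested. The block fit called 1832 genes for wounding, 526 for current, 382 for the difference and 4288 for the control leaves. No call of a pathway or family gene named here ended with it. Signal over background is not given, so values under about 3 carry little weight.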

Other observations

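The genes beside the 4 on the chromosome, by gene order in RefSeq TAIR10.1, were looked up after the values of the 4 had been seen. Of 8 neighbouring protein-coding genes, 3 had a named probe set. AT1G24095 and AT1G24110, on the sides of UGT74B1, were at 0.06 (SE 0.13, limma adjusted p = 0.861) and 0.33 (SE 0.12, limma adjusted p = 0.0737) after wounding, and at 0.16 (SE 0.13) and 0.04 (SE 0.12) after current. IKU2, a receptor-like kinase gene known from seed growth, which lies beside BCAT4, was at -0.28 (SE 0.12, limma adjusted p = 0.14) after wounding and -0.05 (SE 0.12) after current. Limma called 0 of these 3 in either comparison.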
